A study of Mus musculus with 6 samples.

Results

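The genes described here decide whether a cell leaves G1, the phase before DNA synthesis. They are the D-type cyclins *Ccnd1*, *Ccnd2* and *Ccnd3*, the kinases *Cdk4* and *Cdk6*, the inhibitors *Cdkn1a* (p21) and *Cdkn1b* (p27), and the retinoblastoma family *Rb1*, *Rbl1* (p107) and *Rbl2* (p130). They were chosen by name for this pathway, their symbols were matched to the Ensembl identifiers of the expression files through the GENCODE M21 annotation, and all 10 were found among the 14548 genes measured. RNA-seq was compared between 3 WT libraries of C2C12 cells, an immortal mouse myoblast line that can be made to form muscle fibres in culture, and 3 libraries of a C2C12 line edited in the myostatin gene *Mstn*, called MSTN-KO. That line, C11, was made by CRISPR/Cas9 cutting in exon 3 of *Mstn* after electroporation of a plasmid, so the mutant libraries stand for a single edited line. C11 is also given as strain for the WT libraries, so grouping followed the genotype label. No drug, time point or other allele is named for either group.

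In G1, D cyclins bind CDK4 or CDK6, and the resulting kinases phosphorylate the retinoblastoma proteins. Unphosphorylated retinoblastoma proteins hold E2F transcription factors in check, and their release starts the genes of DNA synthesis. Inhibitors of the CIP/KIP group, p21 and p27, bind the cyclin and kinase complexes. In skeletal muscle, myoblasts leave the cell cycle before they fuse, and p21, cyclin D3 and RB are known to accumulate in differentiating muscle cells.

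Expression was deposited as FPKM, the fragments on a gene scaled to its length and to the total of its library, so levels can be set side by side between genes. The FPKM values summed to between 723705 and 764524 in WT and to between 856314 and 999579 in MSTN-KO. The absolute depth is unknown, and the steps of low values gave rough depths of 0.859 to 1.087 relative to WT replicate 1. *Mstn* was near 0 in all libraries, at 0 to 0.0399 FPKM in WT and 0.0269 to 0.0586 FPKM in MSTN-KO, so its RNA checks no label. The myoblast regulator *Myod1* was at 125.9 to 167.5 FPKM in WT, against 90.8 to 103.6 FPKM in MSTN-KO. Of the 7 myoblast markers measured, 3 were called lower and 1 higher, against 8.96% and 8.78% of all tested genes. *Pax7* was the marker called higher, with means of 1.02 FPKM in WT and 2.19 FPKM in MSTN-KO. *Myf5*, with means of 11.3 and 12.1 FPKM, was not called. All 4 endothelial markers measured were under 1 FPKM everywhere, as were the epithelial markers *Krt5*, *Cdh1* and *Cldn4*, whereas the keratin gene *Krt14* was at 24.6 to 52.1 FPKM. The macrophage marker *Cd68* was at 0.702 to 2.39 FPKM. Nothing in the labels says that the libraries of a group came from separate cultures, so the p-values measure only the spread between these libraries. In such bulk samples, fewer cells of a type and less RNA per cell cannot be told apart.

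*Cdkn1a*, *Rb1* and *Ccnd3* were downregulated in MSTN-KO, and none of the 10 genes was upregulated. Group differences were tested with limma on log2(FPKM + 1) over 10837 genes, and a gene was called at a Benjamini-Hochberg adjusted p under 0.05. Calls of lower expression covered 3 of the 10 genes, against 8.96% of all genes tested (971 lower and 952 higher, or 2367 and 350 with each library scaled to the same FPKM sum). Calls of higher expression covered 0 of the 10, against 8.78% of all genes, and at an unadjusted limma p under 0.05 there was 1 such gene, *Cdk4*. The share of all genes under this unadjusted threshold was not computed, so counts at it have no background here. Downward, 4 genes had an unadjusted p under 0.05, the called 3 and *Cdk6*. The same 4 were lower in every MSTN-KO library than in any WT library, a separation seen in 18.1% of all genes, and *Cdk4* was the 1 gene higher throughout, as were 19.3% of all genes. The median log2 fold change was -0.14 over the 10 genes and -0.001 over all genes, with 3 of the 10 above 0 and 7 below. Applied to this fit, the study's own definition of a differentially expressed gene took in 0 of the 10. That definition asks for an unadjusted p under 0.05 with a log2 fold change above 1 or below -1. Of all genes, 1.21% met it upward and 2.30% downward. *Rb1* and *Cdkn1a* came nearest to it, at -0.85 and -0.77, and their place relative to -1 depended on the scale. *Rb1* was at -1.09 with 0.1 in place of 1 FPKM added before the log. With each library scaled to the same FPKM sum, *Rb1* was at -1.11 and *Cdkn1a* at -1.06. The study itself lists *RB1* among its downregulated genes. Its qRT-PCR, which tested *RB1* too, found a significant fall only in *FOS* and *TGFB1*.

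**Figure D1:**
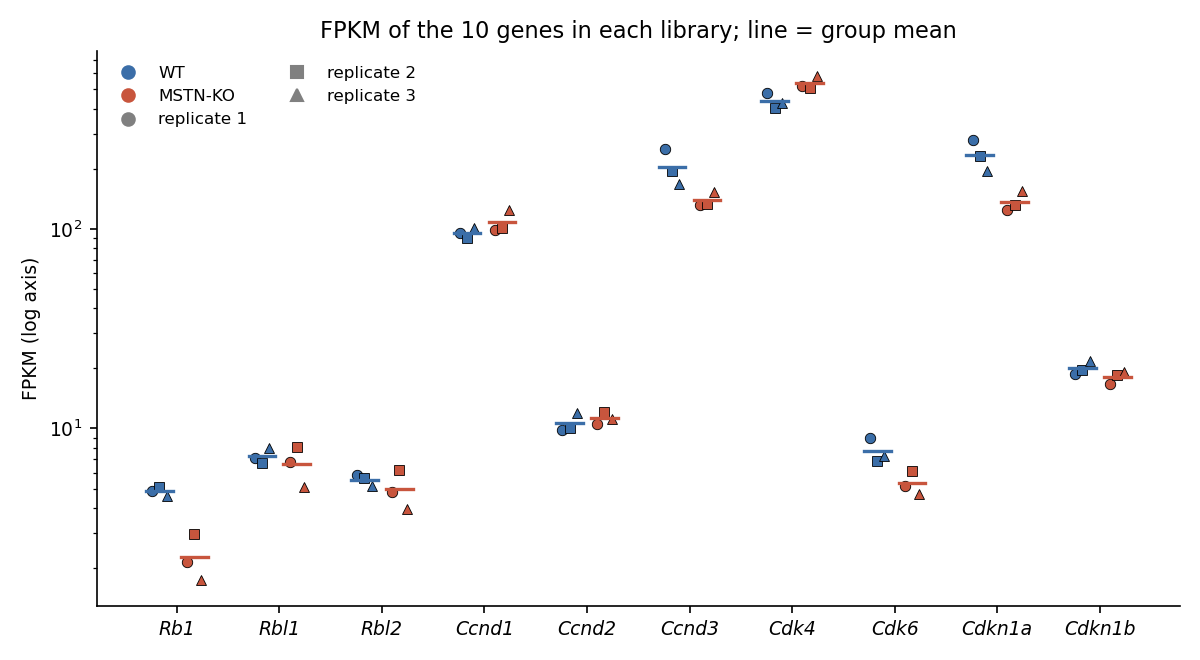
FPKM of the 10 genes in each library, on a log axis, with 3 WT and 3 MSTN-KO libraries as points and the group mean as a line. *Cdk4* stood highest in both groups and *Rb1* lowest, and the groups separated without overlap for *Ccnd3*, *Cdk4*, *Cdk6*, *Cdkn1a* and *Rb1*.

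**Figure D2:**
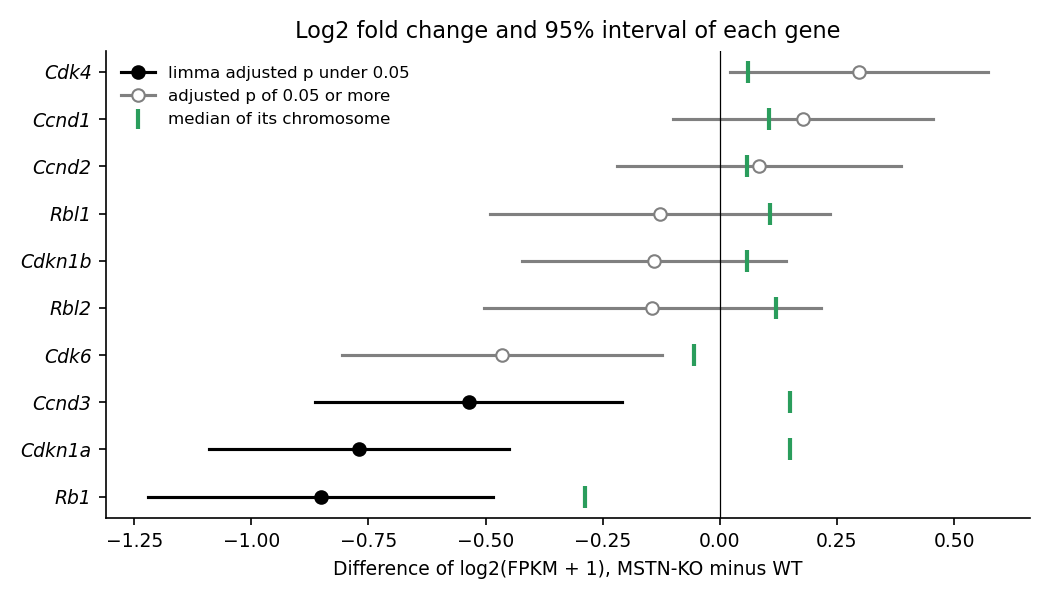
Difference of log2(FPKM + 1) between MSTN-KO and WT for each gene, with the 95% interval from limma and, as a green tick, the median of all tested genes on its chromosome. Filled points are *Rb1*, *Cdkn1a* and *Ccnd3*, the 3 genes with an adjusted p under 0.05, and all 3 intervals lie below 0.

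The D cyclins are the growth-factor-responsive partners of CDK4 and CDK6. *Ccnd3* (ENSMUSG00000034165), the form that rises in differentiating muscle, lies at chr17:47505051-47599691 of GRCm38 on the plus strand. It was at 251.0, 194.2 and 167.1 FPKM in the WT libraries and at 131.4, 132.4 and 152.5 FPKM in those of MSTN-KO. All MSTN-KO values lay below all WT values, and WT replicate 1 was the highest of the 6. The means were 204 ± 42.8 and 139 ± 11.9 FPKM (SD, n = 3), a log2 fold change of -0.54 (SE 0.15, 95% interval -0.86 to -0.21, limma with Benjamini-Hochberg adjustment, adjusted p = 0.0274). This call was the least secure of the 3. Without WT replicate 1 the log2 fold change was -0.38 (limma adjusted p = 0.0884), and it stayed above the 0.05 threshold too without WT replicate 2 (adjusted p = 0.0718), without MSTN-KO replicate 1 (0.0948) and with no filter on low genes (0.0684).

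*Ccnd1* (ENSMUSG00000070348, chr7:144929931-144939925, minus strand), the most widely expressed D cyclin of cycling cells, had 95.1, 90.0 and 100.5 FPKM in WT and 99.1, 100.9 and 124.7 FPKM in MSTN-KO. The groups overlapped, and MSTN-KO replicate 3 stood above the other 5 libraries. Its log2 fold change was 0.18 (95% interval -0.10 to 0.46, limma adjusted p = 0.360). *Ccnd2* (ENSMUSG00000000184, chr6:127125162-127152193, minus strand) was the scarcest D cyclin, at 9.84, 10.03 and 11.9 FPKM in WT and 10.5, 12.1 and 11.2 FPKM in MSTN-KO. These values overlapped throughout, and the log2 fold change was 0.08 (95% interval -0.22 to 0.39, limma adjusted p = 0.713). The sign of both small differences depended on the scaling, since they were -0.11 and -0.18 when each library was scaled to the same FPKM sum, a step that moved the median of all genes by -0.26.

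Within each library, *Ccnd3* took a smaller part of the D cyclin RNA in MSTN-KO than in WT and *Ccnd1* a larger part. Such a share does not depend on how libraries are scaled. The shares of a family add up to its whole, so those of *Ccnd3* and *Ccnd1* are not independent results. *Ccnd3* supplied 70.5%, 66.0% and 59.8% of the summed D cyclin FPKM in WT and 54.5%, 53.9% and 52.9% in MSTN-KO. *Ccnd1* supplied 26.7%, 30.6% and 35.9% in WT and 41.1%, 41.1% and 43.2% in MSTN-KO. Neither share overlapped between the groups, and the WT libraries spread far more widely than the MSTN-KO libraries. The mean share of *Ccnd3* was 65.4% ± 5.40 in WT and 53.8% ± 0.835 in MSTN-KO (SD, n = 3, two-sided exact permutation test, p = 0.1). For *Ccnd1* the means were 31.1% ± 4.64 and 41.8% ± 1.23 (SD, n = 3, exact permutation p = 0.1). With 3 libraries against 3, 0.1 is the smallest p this test can give, and over the 8 shares tested here the adjusted p was 0.114. The *Ccnd2* share, 3.48% ± 0.756 in WT and 4.39% ± 0.538 in MSTN-KO, overlapped (SD, n = 3, exact permutation p = 0.2). The 3 D cyclins summed to 310 ± 40.5 FPKM in WT and 258 ± 26.1 FPKM in MSTN-KO, which also overlapped (SD, n = 3, exact permutation p = 0.2).

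The kinase genes differed in opposite directions, and neither passed the adjusted test. *Cdk4* (ENSMUSG00000006728, chr10:127063534-127067920, plus strand), the main D cyclin partner in most cells, was the most abundant of the 10 genes, at 475.9, 401.1 and 428.8 FPKM in WT and 516.3, 505.5 and 582.5 FPKM in MSTN-KO. Each MSTN-KO library exceeded each WT library, and MSTN-KO replicate 3 was the highest. The log2 fold change was 0.30 (SE 0.13, 95% interval 0.02 to 0.57), and limma's adjusted p was 0.125. It was smaller after rescaling, at 0.05 with quantile normalization and 0.01 with each library scaled to the same FPKM sum. *Cdk6* (ENSMUSG00000040274, chr5:3341485-3531008, plus strand), the closely related second kinase, was at 9.002, 6.88 and 7.25 FPKM in WT and at 5.13, 6.11 and 4.68 FPKM in MSTN-KO. Each MSTN-KO library lay below each WT library, with 6.88 FPKM in WT replicate 2 nearest to 6.11 FPKM in MSTN-KO replicate 2. The log2 fold change was -0.47 (SE 0.16, 95% interval -0.81 to -0.12, limma adjusted p = 0.0588). Either gene passed 0.05 when each library was first corrected for gene length and GC content, with a limma adjusted p of 0.0489 for *Cdk4* and 0.0462 for *Cdk6*. *Cdk6* also passed without MSTN-KO replicate 2 (limma adjusted p = 0.0367), with libraries scaled by their percentile 75 (-0.53, 0.0401) and with libraries scaled to the same FPKM sum (-0.73, 0.0190).

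*Cdk4* made up nearly all of the kinase RNA in both groups, at 98.3% ± 0.106 of the summed *Cdk4* and *Cdk6* FPKM in WT and 99.0% ± 0.199 in MSTN-KO (SD, n = 3, exact permutation p = 0.1, adjusted p = 0.114 over 8 shares). The lowest MSTN-KO share, 98.8%, was above the highest WT share, 98.3%. Their sum was 443 ± 39.0 FPKM in WT and 540 ± 41.1 FPKM in MSTN-KO, also without overlap (SD, n = 3, exact permutation p = 0.1, adjusted p = 0.133 over 4 family sums).

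Of the inhibitors, *Cdkn1a* was downregulated and *Cdkn1b* did not pass the test. *Cdkn1a* (ENSMUSG00000023067, chr17:29090976-29100727, plus strand) encodes p21, which is induced by p53 and, in muscle, during exit from the cell cycle. It was at 278.6, 231.9 and 195.0 FPKM in WT and at 124.2, 131.3 and 154.1 FPKM in MSTN-KO. The highest MSTN-KO library lay below the lowest WT library, and WT replicate 1 again stood highest, as for *Ccnd3* and *Cdk6*. The means were 235 ± 41.9 and 137 ± 15.6 FPKM (SD, n = 3), and the log2 fold change was -0.77 (SE 0.15, 95% interval -1.09 to -0.45, limma with Benjamini-Hochberg adjustment, adjusted p = 0.00364). The call held in all 6 fits that left out a library, with log2 fold changes from -0.90 to -0.64, and in the 10 other alternative settings.

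*Cdkn1b* (ENSMUSG00000003031, chr6:134920401-134925513, plus strand) encodes p27, which holds resting cells out of the cycle and is largely controlled through protein turnover. It was at 18.7, 19.7 and 21.9 FPKM in WT and at 16.7, 18.5 and 19.2 FPKM in MSTN-KO. The groups overlapped, and the log2 fold change was -0.14 (95% interval -0.42 to 0.14, limma adjusted p = 0.480). Once gene length and GC content had been corrected for, it was 0.002. With each library scaled to the same FPKM sum it was -0.42 and called lower (limma adjusted p = 0.0333). Within the pair, *Cdkn1a* made up 93.7%, 92.2% and 89.9% in WT and 88.1%, 87.7% and 88.9% in MSTN-KO. The ranges did not overlap, but the lowest WT share and the highest MSTN-KO share were close, and the mean difference was -3.69 percentage points (n = 3, exact permutation p = 0.1, adjusted p = 0.114 over 8 shares). The sum of both inhibitors was 255 ± 40.3 FPKM in WT and 155 ± 16.7 FPKM in MSTN-KO (SD, n = 3, exact permutation p = 0.1, adjusted p = 0.133 over 4 sums).

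*Cdkn1a* and *Ccnd3* were lower together, while *Cdk4* was higher in each MSTN-KO library but not called. The 250 bases before the RefSeq starts of these genes in GRCm38.p6 are shown. They were picked by those values, and a link between these bases and the expression was not tested. Capitals mark every match, on either strand, to CAGCTG (an E-box bound by MYOD1 and its relatives), CACGTG (an E-box bound by MYC), the E2F motifs TTTCGCGC, TTTGGCGC and TTTCCCGC, and the GC box GGGCGG, which appears as CCGCCC when it lies on the other strand. A GC box on the other strand can share letters with TTTCCCGC. *Cdkn1a* and *Ccnd3* have 2 windows each, at an upstream and a downstream start. FPKM per gene cannot separate starts.
Cdkn1a upstream start, chr17:29090729-29090978, plus strand: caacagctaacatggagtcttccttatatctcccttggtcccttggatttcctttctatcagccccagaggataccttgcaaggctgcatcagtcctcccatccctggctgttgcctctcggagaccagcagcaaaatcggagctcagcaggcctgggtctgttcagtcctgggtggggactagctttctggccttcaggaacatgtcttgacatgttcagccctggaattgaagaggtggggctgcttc
Cdkn1a downstream start, chr17:29093519-29093768, plus strand: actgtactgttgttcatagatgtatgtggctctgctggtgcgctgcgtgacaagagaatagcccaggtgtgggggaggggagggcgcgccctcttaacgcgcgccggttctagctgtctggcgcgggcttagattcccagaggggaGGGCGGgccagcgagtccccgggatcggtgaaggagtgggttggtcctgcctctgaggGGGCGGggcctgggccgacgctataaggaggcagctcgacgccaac
Ccnd3 upstream start, chr17:47504801-47505050, plus strand: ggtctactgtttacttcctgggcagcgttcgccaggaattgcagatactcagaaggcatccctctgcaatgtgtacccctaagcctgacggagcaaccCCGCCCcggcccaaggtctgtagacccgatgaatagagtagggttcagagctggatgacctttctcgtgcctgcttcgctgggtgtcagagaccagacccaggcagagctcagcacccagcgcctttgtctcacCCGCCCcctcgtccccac
Ccnd3 downstream start, chr17:47593217-47593466, plus strand: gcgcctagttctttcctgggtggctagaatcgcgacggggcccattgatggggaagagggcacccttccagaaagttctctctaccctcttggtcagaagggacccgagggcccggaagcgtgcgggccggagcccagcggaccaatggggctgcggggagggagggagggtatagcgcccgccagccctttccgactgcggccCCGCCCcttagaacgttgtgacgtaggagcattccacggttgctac
Cdk4, chr10:127063285-127063534, plus strand: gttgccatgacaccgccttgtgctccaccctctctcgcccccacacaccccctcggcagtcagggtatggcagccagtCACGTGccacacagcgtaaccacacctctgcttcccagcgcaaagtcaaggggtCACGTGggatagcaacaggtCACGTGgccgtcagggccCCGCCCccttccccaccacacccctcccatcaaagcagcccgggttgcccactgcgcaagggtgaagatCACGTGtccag

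The *Cdk4* window held 4 copies of CACGTG, 172, 118, 98 and 11 bases before the start, and a GC box. A copy of CACGTG occurred in 6.02% of 32851 such windows of all genes. The downstream *Cdkn1a* window held 2 GC boxes, 104 and 46 bases before the start, and the upstream one matched none of the motifs searched. Motifs of other factors, p53 among them, were not searched, so such sites would be unmarked in any window. The upstream *Ccnd3* window held 2 GC boxes, 152 and 18 bases before the start, and the downstream one held 1, 46 bases before it. GC boxes occurred in 32.7% of all windows. CAGCTG, found in 4271 of the 32851 windows, was in none of these 5 windows, nor were the E2F motifs, found in 0.26%, 0.42% and 0.89%. E-boxes of forms other than CAGCTG and CACGTG were not searched, so the windows may hold them. *Rbl1* was the member with an E2F motif, TTTCGCGC 18 bases before its start, and it also held CAGCTG at 183 bases. *Cdk6* held 1 CACGTG, *Cdkn1b* held 1 GC box and *Rbl2* matched none. In all, 7 of the 10 genes had a window, and *Rb1*, *Ccnd1* and *Ccnd2* had none.

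Of the retinoblastoma family, *Rb1* was downregulated and its relatives did not pass the test. *Rb1* (ENSMUSG00000022105, chr14:73183673-73325822, minus strand), which encodes the retinoblastoma protein itself, was at 4.84, 5.12 and 4.603 FPKM in WT and at 2.15, 2.96 and 1.73 FPKM in MSTN-KO. The WT libraries lay close together and well above every MSTN-KO library, of which replicate 3 was the lowest. The MSTN-KO mean of 2.28 ± 0.624 FPKM was 47.0% of the WT mean of 4.85 ± 0.257 FPKM (SD, n = 3). On the log2 scale the change was -0.85 (SE 0.17, 95% interval -1.22 to -0.48, limma with Benjamini-Hochberg adjustment, adjusted p = 0.00453), and at these low levels the added 1 FPKM makes it smaller than the ratio of means. The call held without each library in turn, at -0.996 to -0.729, and in the 10 other alternative settings.

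The chromosome of *Rb1* was low as a whole. The median log2 fold change of the 367 tested genes on chromosome 14 was -0.29, the difference of *Rb1* from it was -0.56, and 5.7% of that chromosome's genes had a lower value than *Rb1*. The median was between -0.06 and 0.15 on the other chromosomes that carry the 10 genes. Low medians were not confined to chromosome 14, since chromosome 13 was at -0.34 and chromosome 1 at -0.25. *Lpar6*, a lysophosphatidic acid receptor gene inside *Rb1* on the other strand, was at 1.80 ± 0.416 FPKM in WT and 0.743 ± 0.132 FPKM in MSTN-KO (SD, n = 3, log2 fold change -0.68, limma adjusted p = 0.0189). *Rcbtb2*, whose exons also overlap those of *Rb1* on the other strand, was at 8.30 ± 1.13 and 5.76 ± 0.540 FPKM (SD, n = 3, limma adjusted p = 0.0542). Whether the counting used strand is not given in the sources used here, so reads from the shared stretches may have been given to either gene. The part of the chromosome-wide shift in the *Rb1* value was not tested. *Rbl2*, *Ccnd1*, *Ccnd3* and *Cdk4* each overlap a gene on the other strand too, *Aktip*, *LTO1*, *Bysl* and *Tspan31*, and none of these passed the adjusted test.

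*Rbl1* (ENSMUSG00000027641, chr2:157145893-157204534, minus strand) encodes p107, the relative most abundant in cycling cells. It was at 7.12, 6.70 and 8.03 FPKM in WT and at 6.83, 8.05 and 5.10 FPKM in MSTN-KO. The highest and the lowest of these values were both MSTN-KO libraries, so the groups overlapped entirely (log2 fold change -0.13, 95% interval -0.49 to 0.24, limma adjusted p = 0.635). *Rbl2* (ENSMUSG00000031666, chr8:91070057-91123844, plus strand) encodes p130, the relative most abundant in resting cells. It was at 5.82, 5.66 and 5.16 FPKM in WT and at 4.78, 6.23 and 3.96 FPKM in MSTN-KO, where replicate 2 was the highest of all 6 and replicate 3 the lowest. Its log2 fold change was -0.14 (95% interval -0.50 to 0.21, limma adjusted p = 0.580).

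As a share of the family, *Rb1* also separated the groups. It made up 27.2%, 29.3% and 25.9% of the summed FPKM in WT and 15.6%, 17.2% and 16.1% in MSTN-KO. The difference of -11.2 percentage points was several times the SD within either group, 1.71 and 0.812 (n = 3, exact permutation p = 0.1, adjusted p = 0.114 over 8 shares). The mean share of *Rbl1* was 41.2% in WT and 47.9% in MSTN-KO, and that of *Rbl2* was 31.4% and 35.8%. Neither share overlapped, and each was at the exact permutation p of 0.1 that bounds the test. Shares of a family add up to its whole, so these larger shares are not results separate from the smaller *Rb1* share. In FPKM, the MSTN-KO means of *Rbl1* and *Rbl2* were 91.5% and 89.9% of the WT means. The family summed to 17.7 ± 0.179 FPKM in WT and to 13.9 ± 3.22 FPKM in MSTN-KO, and the wide MSTN-KO spread ran from 10.8 FPKM in replicate 3 to 17.2 FPKM in replicate 2 (SD, n = 3, exact permutation p = 0.1, adjusted p = 0.133 over 4 sums).

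**Figure D3:**
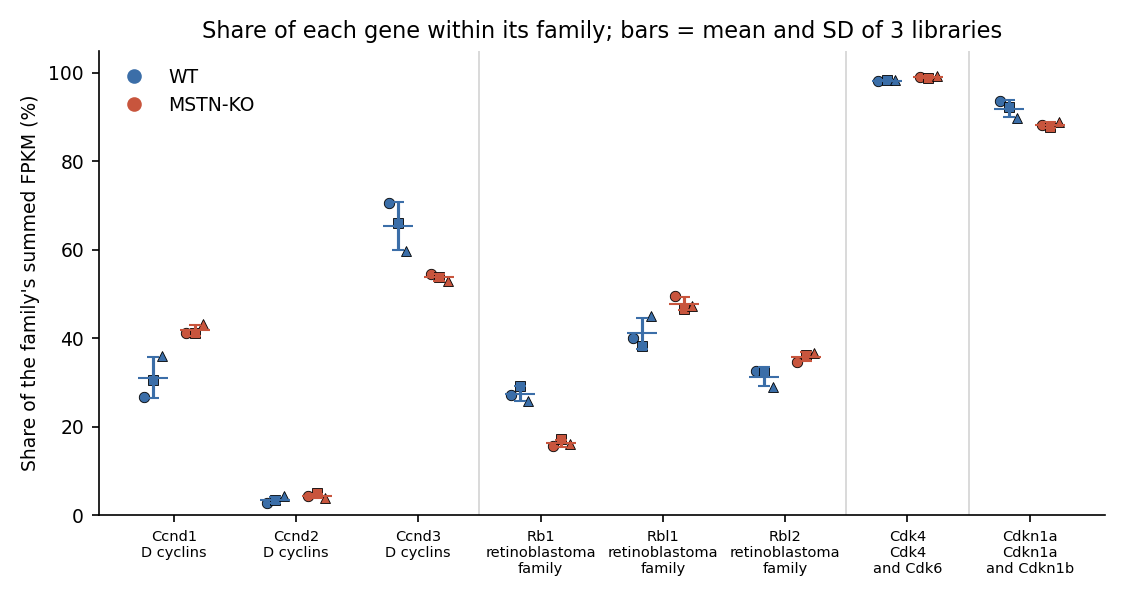
Share of each gene in the summed FPKM of its family, in percent, for 3 WT and 3 MSTN-KO libraries, with points for libraries (circle, square and triangle for replicates 1, 2 and 3) and bars for the mean and SD. *Ccnd3* and *Rb1* took smaller shares in every MSTN-KO library than in any WT library, and *Ccnd1*, *Rbl1* and *Rbl2* took larger ones. Shares of a family add up to its whole and are not independent.

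The order of the levels was much alike in both groups. In WT it ran from *Cdk4* through *Cdkn1a*, *Ccnd3*, *Ccnd1*, *Cdkn1b*, *Ccnd2*, *Cdk6*, *Rbl1* and *Rbl2* to *Rb1*. Among neighbours in this order, the library ranges overlapped for *Cdkn1a* with *Ccnd3* and for *Cdk6* with *Rbl1*. In MSTN-KO, *Ccnd3* came before *Cdkn1a* and *Rbl1* before *Cdk6*, with the rest in the same order. There the ranges of *Ccnd3* and *Cdkn1a*, of *Cdkn1a* and *Ccnd1*, of *Rbl1* and *Cdk6*, and of *Cdk6* and *Rbl2* overlapped. *Cdkn1a* exceeded *Ccnd3* in all 3 WT libraries and was below it in 2 of 3 MSTN-KO libraries.

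Within MSTN-KO the libraries did not deviate alike. Replicate 3 was the lowest of all 6 libraries for 4 genes, *Rb1*, *Rbl1*, *Rbl2* and *Cdk6*, and the highest for *Ccnd1* and *Cdk4*. It also differed in a general way, since across 10784 genes its deviation from the gene mean correlated with gene length at a Spearman rho of -0.402 and with GC content at 0.497. Across the other 5 libraries rho with length ran from -0.043 to 0.247 and rho with GC content from -0.521 to 0.123. The -0.521 was that of WT replicate 3, a GC trend at least as large in the opposite direction. These are descriptions across genes, which are not independent replicates. The 4 genes have exon GC contents of 41.5% to 47.8% and exon lengths of 5993 to 13989 bases, whereas *Ccnd1* and *Cdk4* have 53.2% and 54.2% and lengths of 4709 and 3249 bases. Replicate 1 of MSTN-KO was the lowest for *Ccnd3*, *Cdkn1a* and *Cdkn1b*. The log2 fold changes of *Rb1*, *Cdkn1a* and *Ccnd3* after the length and GC correction were -0.61, -0.81 and -0.56, and all 3 stayed called.

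Genes of muscle differentiation were lower in MSTN-KO at the same time. Of 24 such genes in the files, 22 reached 1 FPKM in some library, and all 22 were called lower, with a median log2 fold change of -2.40. Of these, *Myh3*, *Ckm*, *Casq2* and *Cav3* reached 1 FPKM in WT only, so they entered the test through the group where they were high. *Myog*, which encodes the differentiation factor myogenin, was at 175.3, 147.6 and 47.3 FPKM in WT and at 7.33, 10.2 and 11.6 FPKM in MSTN-KO. The summed level of the list was 1342 to 2580 FPKM in WT and 541 to 715 FPKM in MSTN-KO. The largest falls were in *Mylpf*, *Tnni1* and *Myl1*, genes of the contractile apparatus, at -4.02, -3.76 and -3.63 on the log2 scale (limma adjusted p from 1.15e-06 to 2.15e-05). WT replicate 3 was low for the list among the WT libraries, and it was also the lowest WT library for *Cdkn1a*, *Ccnd3* and *Rb1*. In WT replicates 1, 2 and 3, *Cdkn1a* deviated from the WT mean by 0.26, -0.01 and -0.25 on the log2 scale and *Ccnd3* by 0.32, -0.05 and -0.27. The median of the muscle list deviated by 0.30, 0.54 and -0.99. Spearman rho of library deviation with GC content fell in the order of *Cdkn1a* and *Ccnd3*, at 0.107, -0.27 and -0.521. Exon GC content is 53.7% in *Cdkn1a* and 57.2% in *Ccnd3*. Within MSTN-KO, *Cdkn1a*, *Ccnd3* and the muscle list were all highest in replicate 3, where *Rb1* was lowest and rho with GC content highest. *Cdkn1a* and *Ccnd3* were lowest in replicate 1, whereas rho was lowest in replicate 2, at -0.229. The part of GC content in these orders was not tested. How much the muscle genes' change and the changes of *Cdkn1a*, *Ccnd3* and *Rb1* have to do with each other was not tested.

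**Figure D4:**
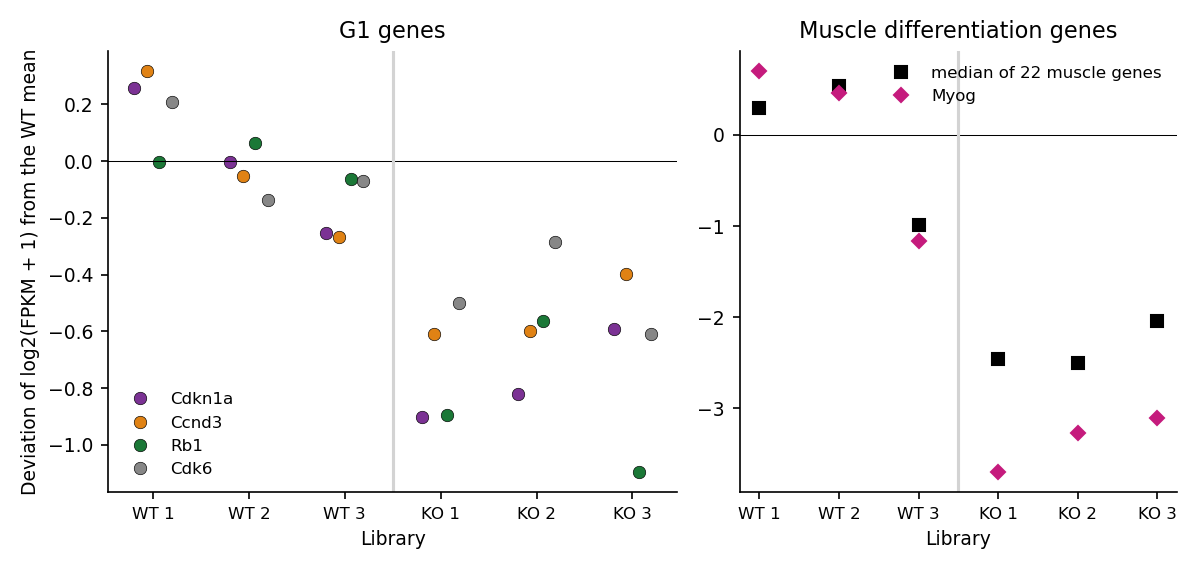
Deviation of log2(FPKM + 1) from the WT mean in each library, for *Cdkn1a*, *Ccnd3*, *Rb1* and *Cdk6* on the left and for *Myog* and the median of 22 muscle differentiation genes on the right, with a different scale in each panel. All values of the 3 MSTN-KO libraries lie below those of the 3 WT libraries, and WT replicate 3 is the lowest WT library in the right panel.

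Other parts of the pathway were taken from lists of genes named for their role. For comparison, 8.78% of all tested genes were called higher and 8.96% lower. Of 8 other G1 kinase and cyclin genes measured, 0 were called in limma, and the median log2 fold change was -0.08. *Ccne1*, the cyclin that follows the D cyclins, was at 29.1 to 36.7 FPKM in WT and 26.0 to 35.5 FPKM in MSTN-KO, and its kinase *Cdk2* at 35.1 to 42.1 and 32.7 to 34.4 FPKM. The 11 genes of inhibitor and cyclin turnover had 0 calls and a median of -0.01. The 7 genes of the MuvB complex, which represses with p107 or p130 in resting cells, and of the MYB factors, which bind it in cycling cells instead, had 0 calls and a median of -0.18, and the 10 corepressors of RB had 0 calls and a median of -0.07. At an unadjusted limma p under 0.05 these 4 lists held 2, 0, 1 and 1 genes that were lower, and the corepressors 1 that was higher, the histone deacetylase gene *Hdac1*. The share of all genes under that threshold was not computed, so these counts have no background.

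Among the 3 other inhibitors measured, *Cdkn1c*, an imprinted gene that encodes the CIP/KIP member p57, was called lower. It was at 2.15, 1.503 and 2.11 FPKM in WT and at 0.653, 0.590 and 0.581 FPKM in MSTN-KO. The log2 fold change was -0.85 (SE 0.17, limma with Benjamini-Hochberg adjustment, adjusted p = 0.00431). *Cdkn1c* reached 1 FPKM in WT only, so it entered the test through the group where it was high. *Cdkn2c* and *Cdkn2d*, inhibitors of the INK4 group that bind CDK4 and CDK6, were at 22.5 to 25.7 and 46.7 to 58.1 FPKM in WT and at 25.8 to 32.0 and 53.5 to 74.1 FPKM in MSTN-KO, with limma adjusted p of 0.235 and 0.403. *Cdkn2a* and *Cdkn2b* were not analysed here.

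The E2F and DP genes encode the transcription factors of this pathway, some of which the retinoblastoma proteins bind. Of 10 measured, 1 was called higher and 2 lower, against 8.78% and 8.96% of all tested genes. *E2f4*, which mainly represses and pairs with p107 and p130, rose from 34.7, 31.4 and 33.8 FPKM to 42.3, 41.5 and 50.1 FPKM (log2 fold change 0.41, limma adjusted p = 0.0417). *E2f2*, an activator, fell from 13.3, 11.04 and 13.5 FPKM to 6.26, 9.14 and 9.70 FPKM (-0.55, limma adjusted p = 0.0385), and *E2f6*, a repressor that does not bind the RB family, from 11.5, 13.3 and 16.3 FPKM to 9.002, 8.30 and 9.69 FPKM (-0.55, limma adjusted p = 0.0258). *E2f1*, the best known activator, overlapped, at 26.1 to 34.4 FPKM in WT and 26.5 to 36.0 FPKM in MSTN-KO. *E2f3* varied widely within both groups, at 37.7, 78.5 and 8.85 FPKM in WT and 7.70, 82.1 and 6.60 FPKM in MSTN-KO. Replicate 2 was its highest library in either group. The calls of *E2f4*, *E2f2* and *E2f6* each rested on few libraries, holding in 1, 2 and 2 of the 6 fits that left out a library.

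Genes that E2F is known to drive went both ways. Of 23 measured, 2 were called higher and 3 lower, against 8.78% and 8.96% of all tested genes. Their median log2 fold change was -0.02. The MCM genes, which encode subunits of 1 helicase, split. *Mcm7* was at 86.2, 86.7 and 88.2 FPKM in WT and at 112.8, 113.5 and 146.3 FPKM in MSTN-KO (log2 fold change 0.50, limma adjusted p = 0.0197), and *Mcm5* also rose (0.47, limma adjusted p = 0.0395). Neither rise passed when each library was scaled to the same FPKM sum, at 0.21 and 0.18, nor did that of *E2f4*, at 0.13. *Mcm4*, in contrast, was at 25.8, 25.7 and 32.5 FPKM in WT and at 15.9, 14.4 and 12.5 FPKM in MSTN-KO (-0.92, limma adjusted p = 0.000934). *Cdc45*, a partner of the same helicase, fell by 0.74 on the log2 scale (limma adjusted p = 0.00383), and the clamp loader gene *Rfc4* fell by 0.89 (limma adjusted p = 0.00954). These 3 genes that fell all lie on chromosome 16. That was noticed after their values had been seen, and the median over the 340 tested genes of that chromosome was -0.08. Of 17 mitotic genes, 1 was called lower, the cyclin gene *Ccnb1*, at 56.9, 58.4 and 73.4 FPKM in WT and 43.9, 44.7 and 41.4 FPKM in MSTN-KO (-0.52, limma adjusted p = 0.0166). *Ccnb1* lies on chromosome 13, where the median over the 410 tested genes was -0.34. The calls of *Mcm4*, *Cdc45* and *Rfc4* held in all 6 fits that left out a library, those of *Mcm7* and *Ccnb1* in 3 and that of *Mcm5* in 2.

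**Figure D5:**
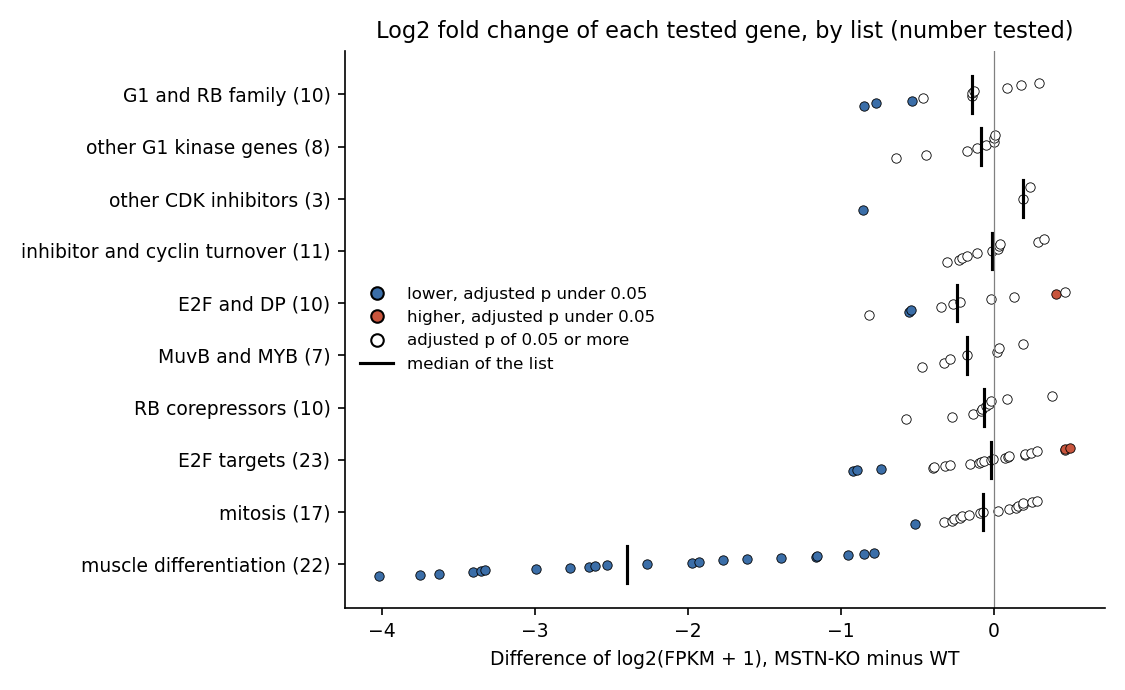
Difference of log2(FPKM + 1) between MSTN-KO and WT for each tested gene (points), in the 10 genes described here and in 9 lists of related genes, with the list median as a bar. Blue and red points have an adjusted p under 0.05, and all 22 muscle differentiation genes are blue while the other lists centre near 0.

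Over the 6 libraries, the deviations of *Ccnd1* from its WT mean were most like those of *Plk1*, a mitotic kinase gene, with a root mean square difference of 0.039 on the log2 scale among 120 genes compared. *Ccnd2* was most like *Cdc6*, at 0.056, and *Cdk4* most like *Cdc20*, at 0.060. None of these 3 partners was called. *Cdkn1a* was most like the muscle intermediate filament gene *Des*, at 0.141, and *Ccnd3* most like *Cdkn1a*, at 0.171. *Rb1* had the loosest match, to *Mcm4* at 0.204.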

How the data were processed

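RNA-seq libraries of C2C12 cells, 3 WT and 3 MSTN-KO, were grouped by the genotype in the labels. The authors deposited FPKM values per gene, 1 library per file. The submitters' processing notes name Bowtie 0.12.2 and mm8 without a role, and the counting, its strand setting and the annotation are not given in the sources used here. FPKM is relative to the fragments of a library, so a few abundant genes lower the values of the others. Of 14548 identifiers, 14445 (99.3%) had a symbol, exon length and GC content in GENCODE M21 of GRCm38.

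Values were fitted as log2(FPKM + 1) with limma 3.58.1 in R 4.3.3 for 10837 genes that reached 1 FPKM in 1 library or more, with the group as the term, eBayes with a trend, two-sided tests and Benjamini-Hochberg adjustment over all genes at 0.05. The added 1 FPKM understates the fold change of low genes. Fitting was tested on simulated data. Shares and sums were compared with two-sided exact permutation tests in scipy 1.17.1 (Python 3.11.15, numpy 2.4.6, pandas 2.3.3, matplotlib 3.10.9). All 10 genes and *Mstn* are named. From each pathway list, genes with an adjusted p under 0.05 and no overlap are named, at most 3 in each direction. Some further genes, such as *Ccne1*, *E2f1*, *E2f3* and *Hdac1*, were named after their values had been seen. For likeness, the gene with the smallest root mean square difference was taken. The genes and lists were chosen with earlier results of these data known.

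Other settings were a pseudocount of 0.1, dropping the filter or asking for a mean of 1 FPKM, eBayes without a trend, quantile normalization, libraries scaled by percentile 75 or to 1000000 in sum, libraries smoothed on gene length and GC content with mgcv 1.9.3, a block for the replicate number (also together with that smooth), and each library left out. Promoter windows came from RefSeq on GRCm38.p6. The other groups of the study and the miRNA data were not analysed here.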

Additional observations from a re-analysis of the deposited data

How the results depend on the processing

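*Rb1* and *Cdkn1a* were called lower under all 16 alternatives, and *Ccnd3* under 12 of them. With each library scaled to a sum of 1000000, 5 of the 10 genes were called lower, and 350 genes of all were called higher and 2367 lower. There *Ccnd1* and *Ccnd2* turned to -0.106 and -0.181, since the median of all genes moved to -0.256, and relative to it *Ccnd1* was at 0.149. With the length and GC correction, 1 of the 10 genes was called higher, *Rbl1* turned to 0.043 and *Cdkn1b* to 0.002. With the replicate block added to that correction these fold changes were 0.043 and 0.002 again, but 0 of the 10 were called higher and 3 lower, and *Cdk4* and *Cdk6* did not pass (limma adjusted p = 0.0659 and 0.0894). With each library left out *Rbl1* ran from -0.257 to 0.027, the latter without MSTN-KO replicate 3. Leaving out each library gave 2 to 4 of the 10 called lower and 0 to 0 higher, with 611 to 1233 lower and 419 to 1175 higher of all genes. The fewest came without WT replicate 2, and calls of higher expression were also over 1.5 times fewer without WT replicate 3 (600), MSTN-KO replicate 1 (488) and MSTN-KO replicate 3 (588). Mean differences of the shares, in percentage points, ran from 8.57 to 13.2 for *Ccnd1*, -14.5 to -9.12 for *Ccnd3* and -12.0 to -10.3 for *Rb1*, where 2 libraries against 3 cannot give an exact p under 0.2. With the replicate number as a block, 939 genes were called higher and 1001 lower, with 0 and 3 of the 10. Deviations of same-numbered libraries from their group means correlated at r of -0.0153, -0.128 and -0.142. The labels link these libraries by number only, and such correlations cannot show whether they shared a culture or batch. Because the depth is unknown, the counting error of low genes such as *Rb1* and *Cdkn1c* could not be computed.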
